A study of Mus musculus with 12 samples.

Results

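The effect of binge ethanol on the bone of wild-type mice was taken from bulk RNA sequencing of the femoral shaft, the hard tube of cortical bone that forms the middle of the thigh bone. The comparison sets 3 ethanol libraries (numbered 10, 11 and 12) against 3 control libraries (7, 8 and 9), chosen by their labelled genotype and gavage, which makes 6 of the 12 libraries of the study. All mice were male, carried both normal copies of the catalase gene Cat (Cat +/+), ate regular chow and were 12 weeks old at treatment. The ethanol groups were gavaged once a day for 4 days with 3, 3, 4 and 4.5 g of ethanol per kg of body weight, from a solution of 31.5% ethanol by volume, and the controls received the same volumes of phosphate-buffered saline (PBS). Tissue was taken 6 hours after the last gavage. Marrow had been spun out of the femurs before RNA extraction. The remaining 6 libraries came from mice without catalase (Cat -/-) under the same gavages, and they enter here in the estimate of the spread and in 1 comparison at the end. Each library pooled the RNA of 2 mice, so a p-value measures the spread between pools.

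Bone is kept in balance by osteoblasts, which lay down a collagen matrix and mineralise it, osteocytes, which are osteoblasts buried in that matrix, and osteoclasts, which dissolve it. Osteoclasts form from marrow precursors when the cytokine RANKL (gene Tnfsf11), made by osteoblast-lineage cells, binds its receptor RANK, and the decoy receptor osteoprotegerin (Tnfrsf11b) blocks that step. Ethanol is known to slow bone formation, and heavy drinking is a known cause of low bone mass. A shaft preparation also carries RNA of residual marrow, blood vessels and adhering skeletal muscle.

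Muscle RNA varied widely among the wild-type libraries. The 26 genes of a skeletal muscle list (myosins, troponins, creatine kinase and the like) took 0.427%, 3.87% and 4.33% of the counts in PBS libraries 7, 8 and 9, and 0.182%, 2.37% and 4.61% in ethanol libraries 10, 11 and 12. The groups overlapped, with means of 2.88% ± 2.13 (SD, n = 3) after PBS and 2.39% ± 2.21 after ethanol and a difference of −0.489 percentage points (exact two-sided permutation p = 0.9, where 3 libraries against 3 cannot give less than 0.1). Mitochondrially encoded genes were highest in the same 3 libraries as muscle (8, 9 and 12), at 2.35%, 6.36% and 5.29% after PBS and 2.19%, 2.92% and 5.0% after ethanol. Along the first principal component of log2 CPM (CPM, a count divided by the TMM-scaled library total in megacounts), which held 56.2% of the variance, the 6 libraries lay in the order of their muscle share, from library 10 (score −61.5) and library 7 (−45.0) to library 12 (38.8). The second component (16.1%) held the PBS libraries at −25.5 to −13.9 and the ethanol libraries at 13.6 to 30.9. Library totals were 19950222 to 24022041 counts, and replicate libraries correlated at 0.959 to 0.988 across genes. The markers of bone were abundant: after PBS the collagen gene Col1a1 stood at a mean of 11931 CPM, Bglap (osteocalcin) at 575 CPM, the osteocyte gene Dmp1 at 743 CPM and the osteoclast protease gene Ctsk at 441 CPM. Marrow RNA was present too, with a neutrophil list at 2.32% to 4.05% of counts and an erythroid list at 1.15% to 2.26%, in overlapping ranges between the groups (exact permutation p = 0.9 and 0.6).

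**Figure D1:**
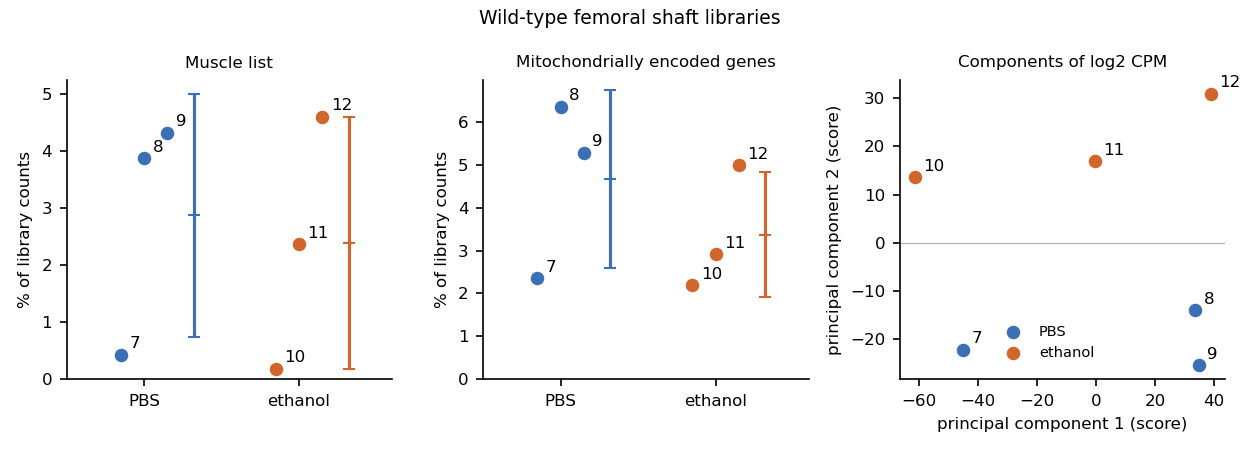
Left and middle: share of each wild-type library's counts (%) in the muscle list and in mitochondrially encoded genes, 1 point per library with its number, and the group mean with SD beside them (n = 3). Right: scores of the same libraries on the first and second principal components of log2 CPM; the muscle share spans 0.182% to 4.61% in both gavage groups together, and the second component puts PBS libraries below 0 and ethanol libraries above.

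A small part of the tested genes passed the threshold, most of them with modest differences. Of 18161 tested genes, 101 were higher (0.556%) and 128 lower (0.705%) after ethanol at an adjusted p under 0.05 (edgeR's quasi-likelihood test with Benjamini-Hochberg adjustment), 1.26% in either direction. In the same test 2907 genes had an unadjusted p under 0.05, so the calls do not measure how many genes changed. A gene that passed is said here to have risen or fallen. Of the rises 26 reached 2-fold and 43 stayed under 1.5-fold, and of the falls 24 reached 2-fold and 75 stayed under 1.5-fold. The median log2 difference was 0.67 among the rises and −0.49 among the falls, against −0.02 over all tested genes. All 229 genes had 3 ethanol libraries that lay wholly above or wholly below the 3 PBS libraries, a pattern that 7.32% of all tested genes showed upward and 9.06% downward. Upper-quartile scaling, in place of the TMM factors, gave 111 rises and 75 falls, so that 59.7% of the calls were rises against 44.1%.

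The calls were recomputed with muscle RNA taken into account. With the mean level of the muscle list as a covariate, all 229 remained called with the same direction, and the calls grew to 216 higher and 292 lower. With muscle and mitochondrially encoded genes left out of the table, 227 of the 229 remained. Without libraries 8, 9 and 12, those with the most muscle RNA, 1 PBS library stood against 2 ethanol libraries. All 229 genes kept their direction there. The lack of overlap between their groups largely fixed that in advance, so it does not bear on muscle RNA. The 26 muscle genes themselves gave no rise and no fall; their log2 differences had a median of −0.40, which was 0.09 with the covariate and 1.58 without libraries 8, 9 and 12.

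The number of calls rests on the spread shared with the knockout libraries. The model took its spread from all 12 libraries (8 residual degrees of freedom), and a fit of the 6 wild-type libraries alone called 4 genes, namely Calcr, Errfi1, Fat3 and the immunoglobulin segment Ighv9-1 (not among the 229), although 1706 genes had an unadjusted p under 0.05 there. DESeq2 on the same 6 libraries, an alternative added after seeing the data, called 112 genes higher and 100 lower, 123 of them among the 229. Leaving out 1 library at a time gave 35 to 320 calls: 54, 48, 51, 85, 95 and 265 without knockout libraries 1 to 6, 320, 45 and 40 without PBS libraries 7, 8 and 9, and 35, 46 and 136 without ethanol libraries 10, 11 and 12. The direction of all 229 genes was the same in each of these fits. Because their ethanol and PBS libraries did not overlap, leaving out a library could hardly have reversed it. The kept direction is therefore no measure of stability. 18 genes passed in all 12 of these fits, and 39 in at least 9.

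**Figure D2:**
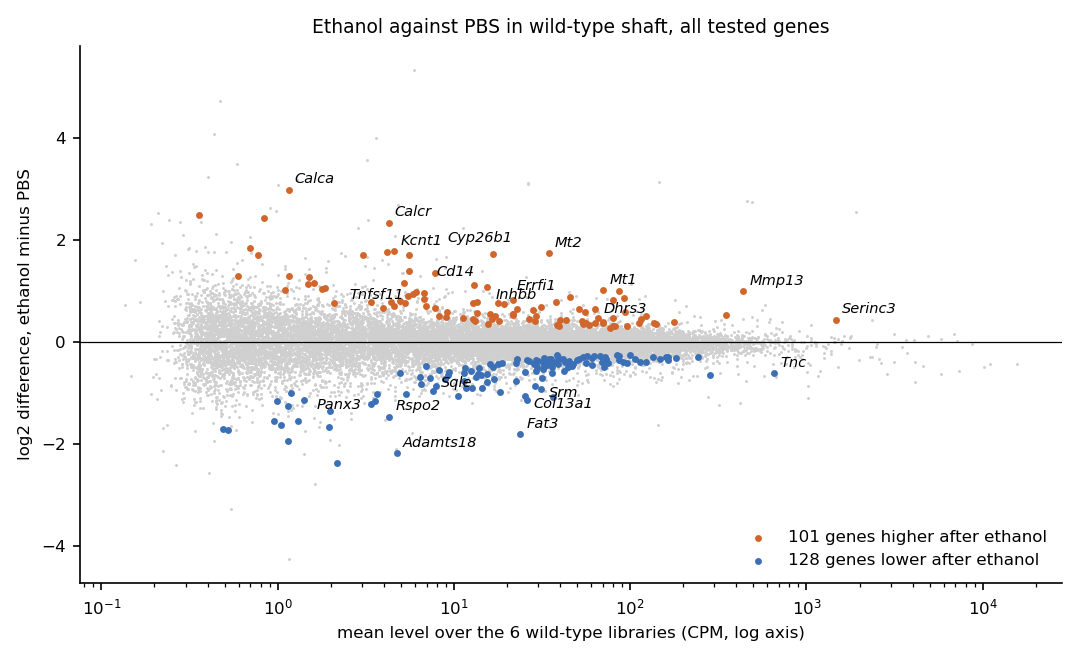
Each point is 1 of the 18161 tested genes, placed by its mean level over the 6 wild-type libraries (CPM, log axis) and its log2 difference, ethanol minus PBS. Coloured points are the 101 genes that rose and the 128 that fell; Calca, Calcr and Mt2 stand high above 0, Adamts18 and Fat3 far below.

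Errfi1 (chromosome 4, 150853919 to 150868892), an inhibitor of the epidermal growth factor receptor and 1 of those 18 genes, was at 31.4, 31.5 and 33.7 CPM after PBS and at 62.6, 54.7 and 60.6 CPM after ethanol. Its lowest ethanol library lay above the highest PBS library, and the log2 difference was 0.88 (SE 0.11, 1.84-fold, adjusted p = 0.0109). Bmf, a BH3-only protein that promotes cell death, rose from 28.2 ± 1.92 to 48.0 ± 5.46 CPM, and Slc43a2, a transporter of neutral amino acids, from 74.8 ± 3.60 to 112 ± 3.42 CPM. Rilpl2 rose 1.53-fold. Among the falls, the actin-bundling protein fascin (Fscn1) went from 28.5 ± 2.65 to 16.7 ± 0.479 CPM, a log2 change of −0.77 (SE 0.08, adjusted p = 0.00582). Prmt1, the main arginine methyltransferase, and Nifk, a nucleolar protein, fell by 0.51 and 0.39 on the log2 scale. Of these, Bmf, Slc43a2, Rilpl2, Fscn1, Prmt1 and Nifk were picked after their values were seen. Another 10 genes of the set (Calcr, Adamts18, Fat3, Mt1, Dhrs3, Abca6, Cd14, Ak4, Srm and Sqle) are described with their groups.

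**Figure D3:**
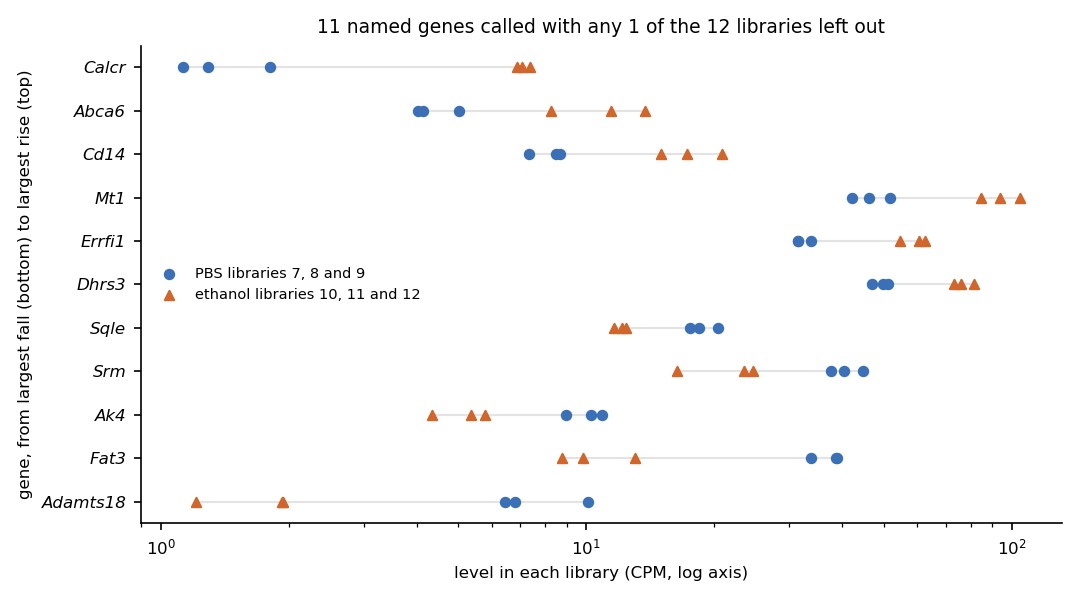
Level in each wild-type library of the 11 of these genes that the naming rule took (CPM, log axis), circles for PBS libraries 7, 8 and 9 and triangles for ethanol libraries 10, 11 and 12; genes run from the largest fall at the bottom to the largest rise at the top. In every row the 3 circles and 3 triangles are apart, by the widest margin for Calcr, Adamts18 and Fat3.

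Of the 7 tested genes of the calcitonin family, Calcr and Calca rose. Calcr (ENSMUSG00000023964, chromosome 6, 3685680 to 3764714) encodes the receptor through which the hormone calcitonin acts on osteoclasts. It was at 1.13, 1.29 and 1.81 CPM in the PBS libraries (26 to 39 counts) and at 6.87, 7.37 and 7.06 CPM in the ethanol libraries (134 to 157 counts). The 3 ethanol values were almost equal and far above the PBS values, with a log2 difference of 2.33 (SE 0.30, 5.04-fold, adjusted p = 0.0109). Calca (chromosome 7, 114631478 to 114636357), whose transcript is spliced into calcitonin or the neuropeptide CGRP, had the largest difference of all rises, 2.98 (SE 0.53, adjusted p = 0.0298). Its level was low throughout, with 7, 2 and 8 counts after PBS and 40, 18 and 66 after ethanol, or 0.282, 0.0994 and 0.370 CPM against 1.84, 0.845 and 3.48 CPM. Counts per gene do not tell calcitonin from CGRP. Calca lost its call without any 1 of libraries 1, 2, 3, 7, 8, 9 or 10 (adjusted p up to 0.0749). The other 5 tested members of the family did not pass: the CGRP receptor gene Calcrl was at −0.10, the receptor partners Ramp1, Ramp2 and Ramp3 at −0.21, 0.29 and 0.55, and adrenomedullin (Adm) at −0.84 (adjusted p = 0.103 to 0.576).

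RANKL rose while its decoy did not pass. Tnfsf11 (chromosome 14, 78277445 to 78308043) was at 5.68, 4.82 and 4.03 CPM after PBS and at 8.90, 7.79 and 9.43 CPM after ethanol. Every ethanol library was above every PBS library, with a log2 difference of 0.84 (SE 0.17, 1.79-fold, adjusted p = 0.0398), but only the fits without library 6 or 7 kept the call among the 12 with a library left out (adjusted p up to 0.116). Tnfrsf11b, named beside it after its value was seen, was at −0.39 (SE 0.21, adjusted p = 0.407) with overlapping groups. Of 20 tested genes of osteoclast regulation Tnfsf11 alone rose and none fell, and their median was −0.05.

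Among 18 genes of osteoclast fusion and resorption 1 rose, Calcr, and none fell, while 16 had differences above 0 (median 0.28) and 10 had ethanol libraries wholly above PBS libraries. Over all tested genes 46.3% were above 0 and 7.32% had ethanol libraries wholly above PBS libraries. The list's median in the knockout was 0.0755. Ctsk, the collagen-degrading protease cathepsin K, was at 413, 454 and 456 CPM after PBS and at 927, 619 and 622 CPM after ethanol (log2 difference 0.71, SE 0.18, adjusted p = 0.0838). Acp5, the tartrate-resistant phosphatase that marks osteoclasts, was at 405, 460 and 453 against 876, 606 and 535 CPM (0.61, SE 0.17, adjusted p = 0.113). The groups did not overlap for either gene, library 10 was the highest for both, and neither passed. In the knockout the same 2 genes were at 0.05 and 0.08, and the difference between the genotypes did not pass (0.66, SE 0.25, and 0.53, SE 0.24, adjusted p = 1 for both). In bulk tissue fewer cells of a type and less RNA per cell cannot be told apart, here and in every list below.

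Of 19 tested osteoblast genes 1 fell and none rose. All 19 had differences below 0 (median −0.55), where 46.3% of all tested genes were above 0, and 11 had ethanol libraries wholly below PBS libraries, as 9.06% of all genes did. That gene was Panx3 (chromosome 9, 37659902 to 37669235), a channel protein of osteoblasts and hypertrophic cartilage, at 3.99, 6.41 and 4.49 CPM after PBS and 2.12, 2.86 and 1.63 CPM after ethanol. The highest ethanol library lay below the lowest PBS library, and the log2 difference was −1.16 (SE 0.23, 0.447-fold, adjusted p = 0.0398), with the call kept without library 6 or 7 and lost without any other library (adjusted p up to 0.101). The osteocalcin gene Bglap was at 553, 501 and 671 CPM after PBS and at 478, 363 and 163 CPM after ethanol. Library 12 was by far the lowest, and the difference of −0.78 had a wide error (SE 0.42, adjusted p = 0.414). The collagen gene Col1a1 showed the same layout, with 10252, 10044 and 5197 CPM in ethanol libraries 10, 11 and 12 (−0.49, SE 0.32, adjusted p = 0.497). Sp7, the osteoblast transcription factor osterix, was at −0.57 (SE 0.25, adjusted p = 0.304) and Ibsp, bone sialoprotein, at −0.26 (SE 0.19, adjusted p = 0.546). Library 12 also had the largest muscle share, and its bone matrix list took 1.82% of counts against 3.20% to 4.06% in the other 5 libraries; the part of this library's makeup in the osteoblast values was not tested. Without libraries 8, 9 and 12 the osteoblast median was −0.37, and with the muscle covariate −0.54.

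Osteocyte genes gave no call. Of 15 tested members 13 were below 0 (median −0.43, and −0.68 without libraries 8, 9 and 12). Phex, which regulates phosphate, was at 208, 149 and 182 CPM after PBS and at 96.2, 114 and 112 CPM after ethanol, a log2 difference of −0.74 (SE 0.19, adjusted p = 0.101) without overlap. Sost, the gene of the Wnt inhibitor sclerostin, was at −0.57 (SE 0.29, adjusted p = 0.389) and Dmp1 at −0.44 (SE 0.18, adjusted p = 0.243), both with overlapping groups.

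In the matrix, 1 protease gene rose and 2 fell. Mmp13 (chromosome 9, 7272514 to 7283331), the collagenase of bone, was among the 12 most counted genes that passed. It was at 304, 243 and 329 CPM after PBS and at 688, 536 and 522 CPM after ethanol. All 3 ethanol libraries were above all PBS libraries, with a log2 difference of 0.99 (SE 0.17, 1.99-fold, adjusted p = 0.0298), and 5 of the 12 fits with a library left out kept the call (adjusted p up to 0.0714). Adamts18 (chromosome 8, 113697126 to 113848738), a secreted metalloprotease, was at 6.44, 10.1 and 6.81 CPM after PBS and at 1.94, 1.93 and 1.21 CPM after ethanol. The groups were well apart, with a log2 difference of −2.19 (SE 0.28, 0.219-fold, adjusted p = 0.0109). Adam12, a membrane-bound metalloprotease, fell from 39.2 ± 1.69 to 23.9 ± 4.18 CPM, a call kept in 1 of the 12 fits. The other 23 of 26 tested proteases and inhibitors did not pass, and the list's median was −0.17.

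Of 34 genes of bone matrix and collagen processing 2 fell and none rose, with 27 below 0 and a median of −0.30 (−0.05 without libraries 8, 9 and 12). Tenascin C (Tnc), an adhesion-modulating glycoprotein, was at 901, 789 and 694 CPM after PBS and at 602, 495 and 451 CPM after ethanol (−0.62, SE 0.12, adjusted p = 0.0361). Crtap, part of the complex that hydroxylates collagen prolines, fell from 54.2 ± 5.44 to 39.2 ± 3.93 CPM (adjusted p = 0.0489, the call kept in 1 of 12 fits with a library left out). Minor collagens were among the largest changes. The membrane-bound collagen genes Col13a1 and Col25a1 fell by 1.06 and 0.91 on the log2 scale (SE 0.18 and 0.14), from 34.4 ± 5.19 to 16.5 ± 2.22 CPM and from 16.6 ± 1.64 to 8.84 ± 0.495 CPM, and Col20a1 rose from 4.01 ± 0.528 to 7.68 ± 0.368 CPM. Loxl4, an enzyme that crosslinks collagen, fell from 14.3 ± 1.11 to 6.84 ± 0.470 CPM. Brevican (Bcan), a hyaluronan-binding proteoglycan with 6 to 45 counts per library, fell to 0.258-fold. In the 12 fits with a library left out, Col25a1 kept its call in 10, Col20a1 in 9 and Col13a1 in 5. Tnc kept its call in 3, and Loxl4 and Bcan in 2. Bcan, Tnc and Crtap also lost their calls with upper-quartile factors.

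Genes of cell contact were among the largest falls. Fat3 (chromosome 9, 15910189 to 16501285), a giant cadherin, was at 38.5, 38.9 and 33.8 CPM after PBS and at 9.82, 13.0 and 8.79 CPM after ethanol. The groups were far apart, with a log2 difference of −1.81 (SE 0.20, 0.285-fold, adjusted p = 0.00937; 0.0447 in the fit of the 6 wild-type libraries). Flrt3, a membrane protein of cell adhesion and guidance, fell from 2.46, 2.64 and 3.52 CPM to 0.922, 1.5 and 0.895 CPM (−1.37, SE 0.26, adjusted p = 0.0361). With Panx3 these were the 3 falls among 20 tested cadherin and junction genes, where 0.705% of all tested genes fell. None of the 20 rose, and the median was −0.19. Srgap1, which acts downstream of guidance receptors, fell from 35.7 ± 7.83 to 16.1 ± 0.167 CPM, and the semaphorin receptor gene Plxna3 by 1.03 on the log2 scale. Syndecan 3 (Sdc3), a membrane heparan sulphate proteoglycan, stood at 406, 284 and 351 CPM after PBS and at 221, 220 and 219 CPM after ethanol (−0.66, SE 0.12, adjusted p = 0.0298), the ethanol values being nearly equal. Of the 12 fits with a library left out, Plxna3 kept its call in 1, Flrt3 in 3, Sdc3 in 4 and Srgap1 in 5. Outside the list, the plexin gene Plxnb3 and the claudin gene Cldn10 rose, named after their values were seen. Over those fits their log2 differences were 0.682 to 0.849 and 0.648 to 0.909, and each kept its call in 1.

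In the signalling pathways of bone, single members passed. Rspo2 (R-spondin 2), which amplifies Wnt signalling, was at 7.61, 3.28 and 8.10 CPM after PBS and at 2.12, 2.72 and 2.0 CPM after ethanol (−1.47, SE 0.29, adjusted p = 0.0395). Library 8 was close to the ethanol libraries, and Rspo2 was the only call among 37 tested Wnt genes (median −0.21). Inhbb, the beta B subunit of activins, was at 9.50, 8.10 and 12.3 CPM against 19.2, 22.6 and 21.2 CPM (1.07, SE 0.17, adjusted p = 0.0232), the only call among 37 BMP and TGF-beta genes (median −0.12). Irs2, which carries insulin and IGF signals, rose 1.34-fold as the only call of 16 IGF-axis genes, and the Notch ligand gene Dll4 fell to 0.636-fold as the only call of 21 Notch and hedgehog genes. Ccn2 (connective tissue growth factor) rose from 65.5 ± 15.1 to 119 ± 17.4 CPM, while the other 14 tested YAP target genes did not pass. Inhbb kept its call in 9 of the 12 fits with a library left out, Irs2 and Dll4 in 3, Rspo2 and Ccn2 in 2 (adjusted p up to 0.113). Nr4a2, an orphan nuclear receptor induced by parathyroid hormone, fell to 0.562-fold (adjusted p = 0.0495, kept in 1 of those 12 fits), as the only call among 22 immediate early genes.

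Glucocorticoid-responsive genes lay mostly above 0. Of 24 tested members 22 were above 0 (median 0.47; 0.72 without libraries 8, 9 and 12), 3 rose (Errfi1, Mt1 and Mt2) and none fell. Over all tested genes 46.3% were above 0 and 0.556% rose. With the muscle covariate 508 of the 18161 tested genes passed, among them 10 members of this list. Among those that did not pass, named here after their values were seen, Fkbp5 was at 76.6, 98.9 and 77.7 CPM after PBS and 87.9, 163 and 222 CPM after ethanol (0.90, SE 0.29, adjusted p = 0.174), and Zbtb16 at 10.02, 16.9 and 18.4 against 10.6, 42.6 and 55.3 CPM (1.26, SE 0.52, adjusted p = 0.275). For both genes ethanol library 10 lay within the PBS range and library 12 was the highest, so their groups overlapped. Library 10 had the smallest muscle share of the 6 and library 12 the largest; the part of muscle RNA in these values was not tested. The glucocorticoid receptor gene Nr3c1 itself was at −0.03 (adjusted p = 0.828).

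Metallothioneins, small proteins that bind zinc and other metals, rose in every ethanol library. Mt1 (chromosome 8, 94179082 to 94180327) was at 42.2, 51.6 and 46.1 CPM after PBS and at 93.7, 84.5 and 105 CPM after ethanol, a log2 difference of 1.02 (SE 0.13, 2.02-fold, adjusted p = 0.0109). Mt2, its neighbour (94172664 to 94173568), was at 11.8, 18.2 and 17.8 CPM against 43.5, 53.9 and 61.3 CPM, a log2 difference of 1.73 (SE 0.24, 3.32-fold, adjusted p = 0.0219). Mt1 passed with any library left out, and Mt2 in 9 of the 12 fits (adjusted p up to 0.0580 without library 8, 9 or 11). Of 14 tested genes of metallothioneins and zinc handling these 2 rose, the zinc importer gene Slc39a10 fell (25.7 ± 0.411 to 19.2 ± 0.656 CPM), and the metal-sensing factor Mtf1, named after its value was seen, was at −0.01. Because both Mt genes moved together, their promoters are shown, from 250 bases before to 50 bases after the annotated start (RefSeq, GRCm38.p6, plus strand; chr8:94178839-94179138 for Mt1 and chr8:94172368-94172667 for Mt2), written 5′ to 3′. Capitals mark the core of the metal response element, TGCACNC or TGCGCNC on either strand.
Mt1: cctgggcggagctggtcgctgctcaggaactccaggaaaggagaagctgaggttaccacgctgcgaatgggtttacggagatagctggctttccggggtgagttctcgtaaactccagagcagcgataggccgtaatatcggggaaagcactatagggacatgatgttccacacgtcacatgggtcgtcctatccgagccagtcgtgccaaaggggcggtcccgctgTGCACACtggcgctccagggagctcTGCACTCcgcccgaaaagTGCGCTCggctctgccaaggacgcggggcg
Mt2: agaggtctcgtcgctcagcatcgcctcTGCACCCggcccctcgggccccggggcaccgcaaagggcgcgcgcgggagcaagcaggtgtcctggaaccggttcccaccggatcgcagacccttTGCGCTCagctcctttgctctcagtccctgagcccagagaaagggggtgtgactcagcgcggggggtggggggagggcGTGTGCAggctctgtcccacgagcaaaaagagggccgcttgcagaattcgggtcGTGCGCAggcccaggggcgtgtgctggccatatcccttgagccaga
The Mt1 window holds 3 such cores and the Mt2 window 4, while at least 1 is found in 25.7% of all 32851 promoter windows of that length and in 38.7% of those of 12377 tested genes. A match is a match of letters and was not tested for binding.

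Retinoic acid handling showed 2 rises among 15 tested genes (median 0.13), where 0.556% of all tested genes rose. Dhrs3, which converts retinaldehyde back to retinol, was at 51.1, 47.0 and 49.7 CPM after PBS and at 81.6, 75.9 and 72.9 CPM after ethanol, a log2 difference of 0.64 (SE 0.07, adjusted p = 0.00582, the lowest of all genes, shared with Bmf, Fscn1 and Slc43a2). Cyp26b1, the enzyme that breaks down retinoic acid, was at 7.13, 9.20 and 6.90 CPM against 17.7, 23.0 and 35.7 CPM (1.72, SE 0.27, 3.29-fold, adjusted p = 0.0251). The ethanol values of Cyp26b1 were spread more widely than those of Dhrs3 but lay above all PBS values.

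Cholesterol synthesis and uptake was the list with the most falls. Of 24 tested genes 9 fell, where 0.705% of all genes did, none rose, 20 were below 0 and 13 had no overlap; the median was −0.40. Ethanol libraries lay wholly below PBS libraries for 9.06% of all tested genes. With the muscle covariate 11 members passed, and 10 did without libraries 8, 9 and 12, where 37 genes passed in all and the list's median was −0.54. Srebf2 and Stard4, below, were named after their values were seen. The falls ran along the pathway. Hmgcs1, which makes HMG-CoA, was at 51.8, 52.0 and 46.3 CPM after PBS and at 29.9, 32.4 and 39.1 CPM after ethanol (−0.57, SE 0.09, adjusted p = 0.0227). Squalene epoxidase (Sqle) was at 20.4, 18.4 and 17.5 against 12.4, 11.6 and 12.2 CPM (−0.64, SE 0.09, adjusted p = 0.0109). The later steps Cyp51 and Msmo1, which remove methyl groups from lanosterol and its products, fell by 0.73 and 0.60 on the log2 scale. So did the regulators: Insig1, which holds the sterol sensor in the endoplasmic reticulum, by 0.62, and Srebf2, the transcription factor of the pathway, by 0.39 (114, 104 and 91.8 against 78.3, 74.1 and 83.6 CPM). The sterol carrier gene Stard4 fell by 0.44. These changes were small (0.604-fold to 0.762-fold over the 7 genes named) with little spread, and Sqle was the only 1 of the 7 that passed in all 12 fits with a library left out. Hmgcs1 and Cyp51 passed in 9 of them, Insig1 in 8, and Msmo1, Srebf2 and Stard4 in 2 or 3 (adjusted p up to 0.122).

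The promoters of 2 of these genes are shown because the sterol response element, TCACNCCAC, and the CCAAT box, both known from sterol-regulated promoters, can be looked up in them (RefSeq, GRCm38.p6; Hmgcs1 on the plus strand at chr13:119690101-119690400, Msmo1 on the minus strand at chr8:64733529-64733828). Capitals mark matches on either strand, so ATTGG is a CCAAT box read from the other strand.
Hmgcs1: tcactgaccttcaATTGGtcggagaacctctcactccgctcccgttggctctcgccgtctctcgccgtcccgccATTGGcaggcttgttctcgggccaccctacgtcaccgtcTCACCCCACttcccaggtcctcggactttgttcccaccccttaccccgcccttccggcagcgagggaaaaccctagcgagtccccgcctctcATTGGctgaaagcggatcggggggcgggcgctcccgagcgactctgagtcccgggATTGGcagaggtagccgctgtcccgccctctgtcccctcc
Msmo1: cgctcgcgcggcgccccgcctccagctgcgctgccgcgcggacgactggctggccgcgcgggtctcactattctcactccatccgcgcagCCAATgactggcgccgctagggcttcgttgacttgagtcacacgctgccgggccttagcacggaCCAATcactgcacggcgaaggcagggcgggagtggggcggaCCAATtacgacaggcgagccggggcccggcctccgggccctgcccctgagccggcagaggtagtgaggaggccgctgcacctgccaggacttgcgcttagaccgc
Hmgcs1 holds 1 sterol response element, 137 bases before the start, which 1.24% of all promoter windows hold, and 4 CCAAT boxes. Msmo1 holds 3 CCAAT boxes and no sterol response element, and none was found in the windows of Cyp51, Insig1 and Srebf2 either. Of the 17 tested list members with an entry, Hmgcs1 alone holds 1 (5.88%, against 1.45% of tested genes). All 5 falling cholesterol genes with a promoter entry (these 2, Cyp51, Insig1 and Srebf2) hold a CCAAT box, as do 16 of the 17 tested list members with an entry (94.1%), against 41.9% of 12377 tested genes with an entry. 

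Other lipid genes changed singly. Srebf1, the factor of fatty acid synthesis, fell by 0.28 on the log2 scale (71.9, 75.2 and 75.8 against 57.9, 63.6 and 61.6 CPM, adjusted p = 0.0361), the only call of 18 tested genes of that pathway. Abca6, a lipid transporter gene, rose from 5.03, 4.13 and 4.03 CPM to 8.25, 13.7 and 11.4 CPM (1.34, SE 0.18, 2.53-fold, adjusted p = 0.0109) as the only call among 11 tested genes of cholesterol efflux. Of 25 genes of fatty acid oxidation and PPAR targets 2 rose, among them the acyl-CoA thioesterase Acot1 (2.90, 3.68 and 2.64 against 11.4, 5.16 and 7.43 CPM, adjusted p = 0.0300). Acot1 has near-identical copies, between which reads may be split.

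Genes of ribosome assembly were slightly lower after ethanol. Of 18 tested members of the ribosome biogenesis list 17 were below 0 (median −0.38), 15 had ethanol libraries wholly below PBS libraries, 5 fell and none rose. Over all tested genes 9.06% had ethanol libraries wholly below PBS libraries and 0.705% fell. The falls were Utp20, a component of the small-subunit processome (35.2, 32.7 and 36.8 against 23.5, 27.0 and 19.5 CPM; −0.58, SE 0.10, adjusted p = 0.0298), Dkc1, the pseudouridine synthase dyskerin (−0.46), Bop1 and Wdr12, partners in large-subunit maturation (−0.41 and −0.38), and the methyltransferase fibrillarin (Fbl, −0.34). All of these were under 1.5-fold, and none of the 5 passed in more than 5 of the 12 fits with a library left out (adjusted p up to 0.123). Dkc1, Bop1, Wdr12 and Fbl also lost their calls with upper-quartile factors. The median was −0.23 without libraries 8, 9 and 12, and Myc was at 0.01. Spermidine synthase (Srm), at 37.6, 40.4 and 44.6 CPM after PBS and 23.4, 24.6 and 16.4 CPM after ethanol, fell further (−0.93, SE 0.13, adjusted p = 0.0126) and passed in all 12. The mitochondrial adenylate kinase gene Ak4 fell likewise, from 10.9, 8.95 and 10.3 CPM to 4.33, 5.35 and 5.79 CPM (−0.96, SE 0.13, adjusted p = 0.0109). None of 29 cell cycle genes passed (median −0.05), and 6 did with the muscle covariate, where 508 of the 18161 tested genes passed.

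Stress pathways gave few calls. Of 20 tested genes of the unfolded protein response 17 were below 0 (median −0.15), 11 without overlap, and the chaperone genes Hyou1 (109, 107 and 114 against 80.8, 87.9 and 78.9 CPM) and Sdf2l1 (38.9, 39.8 and 35.7 against 27.8, 29.6 and 28.9 CPM) fell, each by 0.41 on the log2 scale. Among all tested genes 9.06% lay lower without overlap and 0.705% fell. In the ATF4 stress response, 1 of 22 tested genes rose, asparagine synthetase (Asns, 40.3 ± 3.23 to 62.7 ± 13.4 CPM, adjusted p = 0.0494, kept in 1 of 12 fits with a library left out), and 1 fell, the proline synthesis gene Pycr1 (10.2 ± 1.72 to 5.60 ± 0.908 CPM). Of 23 glycolysis and hypoxia genes Ankrd37 fell (0.489-fold), and the list's median of −0.29 was −0.12 with the muscle covariate. Heat shock (17 tested), p53 (14) and interferon (17) genes gave no call.

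Genes that handle ethanol and peroxide did not pass. None of 15 tested genes of ethanol, acetaldehyde and acetate metabolism was called (median 0.05); those with the smallest p were Aldh1a2 (−0.68) and Aldh3a1 (0.54), both with an adjusted p of 0.24. Catalase itself was at 128, 152 and 175 CPM after PBS and at 172, 165 and 144 CPM after ethanol, in overlapping groups (0.08, SE 0.10, adjusted p = 0.748). None of 22 peroxide and thiol defence genes (median −0.07), 19 NRF2 targets (0.01) or 10 NADPH oxidase genes (0.09) was called. Hmox1, a heme-degrading NRF2 target, was at −0.59 with an adjusted p of 0.22, and its groups overlapped.

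Genes known from nerve cells changed at low levels. Kcnt1, a sodium-activated potassium channel, was at 2.62, 1.49 and 2.08 CPM after PBS and at 6.96, 7.37 and 6.90 CPM after ethanol (1.77, SE 0.26, 3.41-fold, adjusted p = 0.0177), and 11 of the 12 fits with a library left out kept the call (adjusted p = 0.0542 without library 9). The noradrenaline transporter gene Slc6a2 fell from 2.25, 2.88 and 3.84 CPM to 1.29, 0.845 and 0.632 CPM (−1.68, SE 0.35, adjusted p = 0.0449), with 12 to 83 counts per library. Gng4, a G protein subunit, fell to 0.321-fold. Slc6a2 passed in 3 of the 12 fits and Gng4 in 2. These were the 3 calls among 16 tested genes of nerve and noradrenaline signalling, where 1.26% of all tested genes were called.

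Among the immune lists, 3 genes rose and none fell. Cd14, the co-receptor for bacterial lipopolysaccharide, was at 7.33, 8.50 and 8.66 CPM after PBS and at 20.8, 14.98 and 17.3 CPM after ethanol (1.12, SE 0.15, 2.17-fold, adjusted p = 0.0109). It was, with the apoptosis inhibitor gene Birc3 (67.0 ± 4.83 to 92.2 ± 11.2 CPM), 1 of 2 rises among 17 tested genes of NF-kB and Toll-like receptor feedback (median 0.10); Birc3 passed in none of the 12 fits with a library left out. Granzyme A (Gzma), a protease of cytotoxic lymphocytes, was at 3.86, 3.63 and 4.82 against 9.82, 8.17 and 6.32 CPM (0.98, adjusted p = 0.0310), the only call of 14 T and NK cell genes (median 0.21, 12 above 0), kept in 2 of the 12 fits with a library left out (adjusted p up to 0.0775). Outside the lists, the cytokine gene Il17d (−1.14, adjusted p = 0.0449), the immunoglobulin segment Ighv1-54 (−2.38, adjusted p = 0.0371) and Zfp683, a transcription factor of lymphocytes (−1.71, adjusted p = 0.0340), fell. The last 2 were named after their values were seen. Il17d kept its call in 1 of the 12 fits with a library left out, Zfp683 in 2 and Ighv1-54 in 4. Zfp683 had 3 to 18 counts per library. The neutrophil, erythroid, B cell, monocyte and macrophage, and platelet marker lists gave no call, with medians of 0.06, 0.05, 0.01, 0.11 and −0.14. Without libraries 8, 9 and 12 these medians were −0.14, 0.25, 0.36, 0.25 and −0.23, and that of the T and NK list was 0.38.

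The most counted gene that passed was Serinc3, a membrane protein, at 1259, 1203 and 1302 CPM after PBS and 1815, 1748 and 1511 CPM after ethanol (0.43, SE 0.07, adjusted p = 0.0254). Other abundant calls were small falls of RNA and protein handling genes, among them Set (−0.29), the translation factor gene Eif3b (−0.32), Syncrip (−0.29), Pa2g4 (−0.35) and the import receptor gene Ipo5 (−0.33), and of annexin A5 (Anxa5, −0.30). The adhesion receptor gene Adgre5 rose by 0.38. Of the 12 fits with a library left out, Set kept its call in 0, and Pa2g4 and Ipo5 in 1. Eif3b, Syncrip and Adgre5 kept theirs in 2, Anxa5 in 4 and Serinc3 in 6. Set, Eif3b, Syncrip, Pa2g4, Ipo5 and Anxa5 also lost their calls with upper-quartile factors.

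Respiratory genes gave no call. All 13 mitochondrially encoded genes (median −0.575) and all 28 nuclear genes of oxidative phosphorylation (median −0.33) were below 0, with overlapping groups for each. Without libraries 8, 9 and 12 their medians were 0.15 for both. Their part in the other results was not tested.

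**Figure D4:**
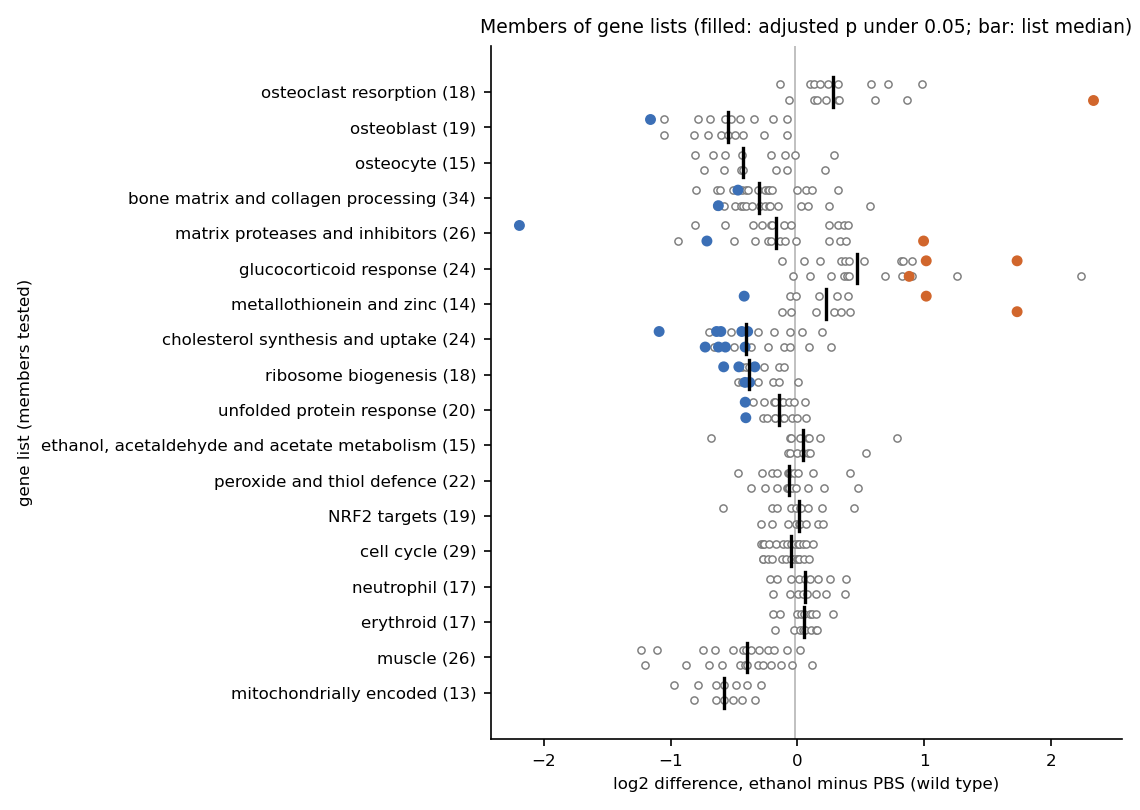
Log2 difference, ethanol minus PBS, of each tested member of 18 gene lists, 1 point per gene, with filled points for genes that passed, a black bar at each list's median and a grey line at the median of all tested genes (−0.02). Cholesterol synthesis holds the most falls (9 of 24), the osteoblast list lies wholly below 0 with 1 call, and the ethanol, peroxide and NRF2 lists are spread around 0 without a call.

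The wild-type changes were set beside those in catalase knockout mice, whose ethanol and PBS libraries are separate samples. All 101 rises had a knockout difference above 0 and 125 of the 128 falls one below 0, where 50% of all tested genes were above 0 in the knockout. In the knockout 0.964% of genes rose and 0.903% fell; 59 of the rises and 58 of the falls passed there too, which is 51.1% of the 229 wild-type calls and 34.5% of the 339 knockout calls. Both comparisons come from 1 model with a shared spread. The exceptions among the falls were Ighv1-54, Timm8a1 and Tsfm, named because of their sign. Calcr was at 2.33 in wild type and 1.62 in the knockout (difference 0.72, SE 0.41), Fat3 at −1.81 and −2.04 (0.23, SE 0.28), Mt2 at 1.73 and 1.99 (−0.26, SE 0.33), and Asns at 0.64 and 1.27 (−0.63, SE 0.19). The test of the difference between the genotypes called 0 genes by edgeR, with 359 of the 18161 at an unadjusted p under 0.05 and 24 of these among the 229; DESeq2 called 1 and limma-voom 0. A p that misses the threshold does not show that the genotypes respond alike: the difference for Calcr has an error of 0.41 on the log2 scale.

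**Figure D5:**
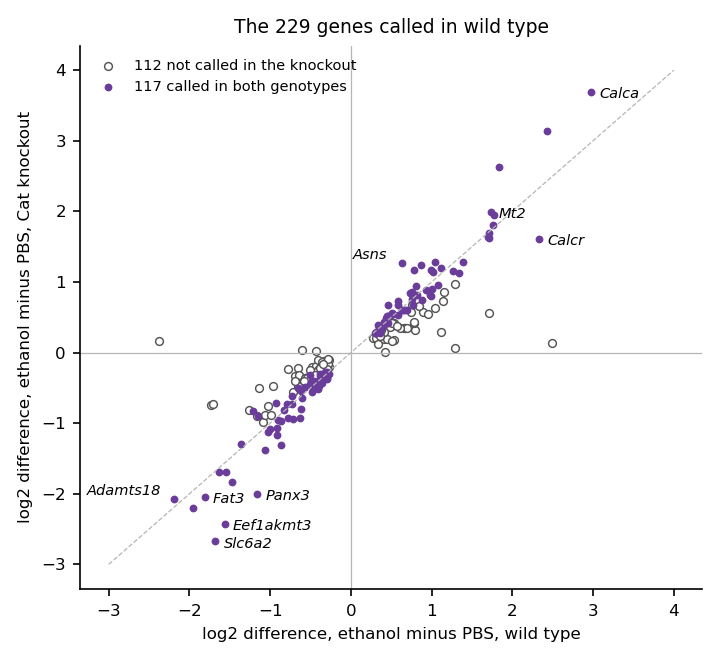
Log2 difference, ethanol minus PBS, in wild type (horizontal) and in the Cat knockout (vertical) for the 229 genes that passed in wild type, filled where they also passed in the knockout; the dashed line marks equal differences. All but 3 of the points lie on the same side of 0 in both genotypes.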

How the data were processed

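RNA of 12 femoral shaft libraries, 3 for each of 4 groups, was sequenced, and the authors deposited a table of raw counts per gene (49315 Ensembl genes), used here unchanged; a second, normalized table was not used. Per the submitters' processing notes, the tools were Trimmomatic 0.36, STAR 2.5.2b and featureCounts of Subread 1.5.2 with the GRCm38 build; their settings, the annotation release, strandedness and multimapping rules are not stated in the labels, so overlapping genes and near-identical copies are uncertain. Columns were assigned by their names, and no column of another sample was present. Symbols and coordinates came from GENCODE M21 (GRCm38), which matched 48970 identifiers; 132 with a symbol shared by several genes keep their identifier.

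edgeR's filterByExpr, at a minimum count of 10 and a total of at least 15, kept 18161 genes, which were scaled by TMM (factors 0.908 to 1.05) and tested with edgeR 4.0.16 (R 4.3.3, quasi-likelihood, 1 mean per group over all 12 libraries, 8 residual degrees of freedom, common dispersion 0.0338), with Benjamini-Hochberg adjustment over all genes and a threshold of 0.05. Log2 CPM used a prior count of 2. The test was checked on simulated data. Alternatives were RLE and upper-quartile factors, other filters, DESeq2 1.42.0, limma-voom (limma 3.58.1), covariates for muscle and marrow lists, fewer genes and fewer libraries; the 6-library fits with a muscle covariate and with DESeq2 were added after seeing the data.

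The genes named were the 25 largest rises and 25 largest falls with a mean of at least 1 CPM and no overlap between groups, the 12 most counted that passed, up to 6 that passed per list or the 2 with the smallest p where none did, Cat, and the muscle and calcitonin families. Bone markers were fixed separately. The comparison, its members and the gene lists were chosen with earlier results of these data known. A few genes chosen by that rule go unnamed. With 3 libraries a group, the exact permutation test cannot give a p under 0.1.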

Additional observations from a re-analysis of the deposited data

How the results depend on the processing

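All 229 genes kept their direction in every setting run in which they had a value. In the fits with fewer libraries, the lack of overlap between their groups largely fixed that outcome in advance. The counts of 101 higher and 128 lower genes became 335 and 396 with DESeq2, 216 and 292 with the muscle covariate and 190 and 320 with a covariate for the marrow lists. They became 12 and 25 without libraries 8, 9 and 12, 3 and 1 with the 6 wild-type libraries only, and 17 and 6 with those libraries and a muscle covariate. With at least 2-fold change required they were 26 and 24; limma-voom gave 66 higher genes and upper-quartile factors 75 lower genes. Leaving out 1 library at a time gave 17 to 107 higher and 18 to 222 lower genes, and a test of the difference between genotypes with 0 calls throughout; DESeq2 called 1. The causes of these differences were not tested. Fits with fewer libraries have fewer degrees of freedom, and those without knockout library 6 or PBS library 7 gave 265 and 320 calls. The difference in muscle share lay between −1.71 and 0.613 percentage points with 1 library left out. RLE factors, other low-count filters and the removal of muscle and mitochondrially encoded genes kept both counts within 1.5 times. Of 2061 values of named genes that passed, taken over the settings, 891 no longer passed and 0 changed direction. No paired analysis was possible because the groups share no replicate numbers. Low counts limit Calca, Bcan, Slc6a2, Gng4 and Zfp683.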

Other observations

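Of the 229 genes, 176 were in none of the lists. The 229 were sorted by known function after their values were seen; the groups below take in some list members, hold only genes that passed in 1 direction, and their direction supports nothing. The largest group was 25 genes of ribosome assembly that fell, with log2 differences of −0.69 to −0.28 and a median of −0.38. Beside those already described it holds Mybbp1a, a nucleolar protein (130 ± 5.18 to 97.8 ± 6.21 CPM), Mdn1, the AAA ATPase that releases factors from the large subunit (51.5 ± 6.83 to 36.7 ± 2.48 CPM), and Tcof1, the treacle protein of ribosomal RNA transcription (62.6 ± 0.720 to 51.4 ± 3.95 CPM). All 25 were lower in the knockout too, as were 125 of the 128 falls. In the knockout 4 of the 25 passed the threshold, against 58 of the 128 falls. Beside Fbl, which is counted with ribosome assembly, 6 enzymes that methylate RNA or protein fell (median −0.62): Eef1akmt3, Mettl1, Trmt61a, Prmt1, Smyd5 and Nsun2, and 5 of these passed in the knockout. Mettl1, which methylates guanosine in transfer RNA, was at 17.3, 19.2 and 21.9 CPM after PBS and at 9.91, 10.9 and 13.0 CPM after ethanol. Supply of nucleotides and polyamines gave 5 falls, namely Srm, Ak4, Nme1, Ctps and Atic (median −0.53).

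The early secretory pathway gave 9 falls (median −0.40), among them the coat proteins Sec31a (140 ± 11.8 to 106 ± 5.09 CPM) and Sec13 (81.9 ± 3.28 to 62.6 ± 3.59 CPM), which carry cargo out of the endoplasmic reticulum, and the retrieval receptor Kdelr2 (78.9 ± 3.27 to 59.7 ± 3.43 CPM). Guidance and adhesion gave 9 falls with a median of −0.78. That group was gathered from falls alone, and Plxnb3 and Cldn10 rose. Of the rises, 13 are genes known from immune cells (0.35 to 1.16, median 0.64; 0.63 without libraries 8, 9 and 12). In the knockout 7 of them passed, where 59 of all 101 rises did. This group was gathered from rises alone, and Ighv1-54, Il17d and Zfp683 fell. The receptor of early blood progenitors and dendritic cells, Flt3, was at 16.6, 16.9 and 13.7 CPM after PBS and at 24.8, 27.3 and 30.4 CPM after ethanol. Tlr8, a sensor of RNA in myeloid cells, was at 17.9, 18.8 and 16.7 against 25.8, 27.4 and 29.8 CPM. Shares of counts in the B cell, T and NK cell, monocyte and macrophage, and platelet lists overlapped between the groups (exact permutation p = 0.5 to 0.9), and the part of marrow cells in these rises was not tested.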
